A study of Mus musculus with 8 samples.

Results

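The Btbd35f genes (BTB domain containing 35, family member) are a group of near-identical gene copies on the mouse X chromosome. Their transcripts were followed here by RNA sequencing of whole adult testis, with 4 Ssty2 knockout libraries (genotype Ssty2-/-) and 4 wild-type libraries (genotype WT). Members were all genes of the count table whose Ensembl identifier carries a symbol of Btbd35f followed by a number, which gave 21 of the 56748 genes in the table. A further 9 symbols of the family in the annotation matched no row and are not analysed here. Of the 21 members, 17 had at least 20 counts over the 8 libraries, and the other 4 are only listed. The tissue is adult testis in both groups, and strain, exact age and whether each library is a separate animal are not given in the labels. The p-values therefore reflect the spread among the 8 libraries alone, part or all of which may be technical. The comparison asks what differs between testis in which the Ssty2 repeats of the Y chromosome were deleted and wild-type testis.

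BTB domains are protein-protein contact domains, and many BTB proteins act as substrate adaptors of the ubiquitin ligase built on cullin 3 (CUL3). The Btbd35f genes are relatives of Gmcl1, the mouse counterpart of the Drosophila gene germ cell-less, which in the fly is needed to form the primordial germ cells. Several X-linked families of spermatids, the haploid germ cells after meiosis, have been amplified in the mouse, and their transcription is known to respond to the multicopy genes of the Y long arm, among them Sly and Ssty.

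In the annotation the 30 Btbd35f symbols lie in 2 separate stretches of the X, here called proximal and distal. The proximal stretch holds 13 of them, all with a row in the table, and the distal stretch holds 17, of which 8 have a row. Each member is annotated with 1 exon. The coding sequence is 1494 bases long in every member with at least 20 counts. Among the 21 members, pairwise identity of the coding sequences had a median of 99.3% and a lowest value of 98.7%, between Btbd35f23 and Btbd35f3, while Btbd35f3 and Btbd35f4 were identical. Over the 17 members with at least 20 counts, 51 of the 1494 coding positions (3.41%) varied. Coding identity to Gmcl1, whose coding sequence has 1572 bases, was between 58.4% and 58.7% with gaps counted as differences. The closeness of the copies can be seen in coding bases 697 to 756 of the 8 members with the most counts, taken from the GENCODE vM21 transcripts. This 60-base stretch was chosen for the largest number of distinct versions among those members, and capitals mark a base that differs from the majority of the 17 members:
Btbd35f29: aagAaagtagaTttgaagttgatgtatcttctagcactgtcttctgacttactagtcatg
Btbd35f24: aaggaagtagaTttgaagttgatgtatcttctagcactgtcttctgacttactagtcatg
Btbd35f23: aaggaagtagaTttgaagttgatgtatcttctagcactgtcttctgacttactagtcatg
Btbd35f27: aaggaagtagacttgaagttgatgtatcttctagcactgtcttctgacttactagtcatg
Btbd35f17: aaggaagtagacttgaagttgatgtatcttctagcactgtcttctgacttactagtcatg
Btbd35f14: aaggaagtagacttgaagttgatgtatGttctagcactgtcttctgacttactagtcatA
Btbd35f21: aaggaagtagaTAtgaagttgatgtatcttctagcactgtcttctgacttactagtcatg
Btbd35f2: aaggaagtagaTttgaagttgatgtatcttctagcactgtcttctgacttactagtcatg
Btbd35f24, Btbd35f23 and Btbd35f2 read the same over this stretch, and so do Btbd35f27 and Btbd35f17.

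Because the copies are so alike, a read can often come from several of them. When each transcript was broken into words of 31 bases, between 88.7% and 100% of a member's words also occurred in another gene of the table, and 19 of the 21 members shared at least 90% of them. The handling of multiply mapping reads is not given in the sources used here. Across the 21 members, the number of words found in no other gene of the table and the total counts went together, with a Spearman rho of 0.77 given as a description only. Btbd35f3, Btbd35f4 and Btbd35f11 had no such word and no count in any library. Btbd35f10 and Btbd35f15 also had none and held 74 and 61 counts, while Btbd35f20 had 93 such words and 2 counts, both in knockout library 4. The counts of single members are therefore uncertain, and levels were not compared between members, only between the groups within a member. For a member without counts, the 3 counts that a count of 0 still allows correspond to 0.0383 CPM over the 4 knockout libraries and 0.0337 CPM over the 4 wild-type libraries. These limits cover counting error only, and a count of 0 in such a copy does not show that it was not transcribed.

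**Figure D1:**
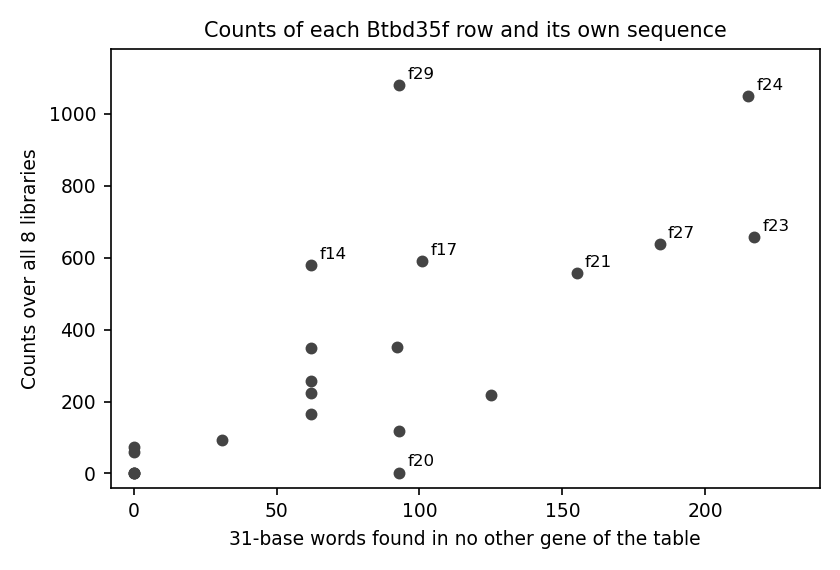
Counts of each of the 21 Btbd35f rows over all 8 libraries (vertical axis) against the number of its 31-base words found in no other gene of the table (horizontal axis), 1 point per gene. Members with under 20 counts lie at the bottom, among them Btbd35f20 with 93 words of its own, and the rows of over 1000 counts are Btbd35f29 and Btbd35f24.

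The starts of the copies are also alike. RefSeq holds a promoter sequence (GRCm38.p6, from 250 bases before to 50 after the annotated start) for 9 of the family's symbols, of which 7 have a row and 5 have at least 20 counts. The 5 promoters were between 97.7% and 99.6% identical over their aligned bases. All 9 carry an 8-base element at the same place in the common sequence, spelled TGACGTCA in 3 of them and TGACATCA in 6. Both spellings were searched on both strands. TGACGTCA reads the same on both, and the reverse of TGACATCA is TGATGTCA. Counted from 1 at the 5′ end of the element, the second spelling carries G5A. TGACGTCA is known as the cAMP response element, which is recognised by CREB and CREM, and CREM is a transcription factor of spermatids. In 32851 RefSeq promoters of the same length, TGACGTCA occurred in 1.79% and TGACATCA in 3.62%. A match of letters is a description and does not show binding. The 48 bases around the element are shown for the 5 members with counts, with the element in capitals. They lie at chrX:33657091-33657138 (plus strand) for Btbd35f13, chrX:4196527-4196574 (plus) for Btbd35f28, chrX:32726060-32726107 (plus) for Btbd35f21, chrX:5669018-5669065 (plus) for Btbd35f7 and chrX:33956627-33956674 (minus) for Btbd35f6:
Btbd35f13: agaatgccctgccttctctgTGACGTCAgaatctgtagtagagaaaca
Btbd35f28: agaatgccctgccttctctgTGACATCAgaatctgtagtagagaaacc
Btbd35f21: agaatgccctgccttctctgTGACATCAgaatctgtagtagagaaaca
Btbd35f7: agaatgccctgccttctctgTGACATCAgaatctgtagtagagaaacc
Btbd35f6: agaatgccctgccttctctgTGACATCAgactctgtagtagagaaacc
The longer stretch in which the element sits is given once, as the 250 bases before the start of Btbd35f13 (GRCm38.p6, chrX:33656890-33657139, plus strand), since it is shared almost letter for letter:
Btbd35f13: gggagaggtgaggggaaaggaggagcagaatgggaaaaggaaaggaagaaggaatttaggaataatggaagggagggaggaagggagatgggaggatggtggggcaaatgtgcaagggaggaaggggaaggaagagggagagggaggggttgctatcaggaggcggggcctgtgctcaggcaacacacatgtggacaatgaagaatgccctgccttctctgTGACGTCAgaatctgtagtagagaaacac

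Library totals ran from 18036708 to 22639737 counts in knockout and from 18763650 to 24415587 in wild type. Levels are given as CPM, the counts scaled to library size after TMM normalisation. Ssty2, the targeted gene, had no count in any knockout library, against 56, 78, 83 and 45 in wild type. Sly, also multicopy on the Y, had 0, 1, 0 and 0 counts in knockout against 135, 181, 283 and 197 in wild type. Loss of Ssty2 and loss of Sly therefore cannot be told apart in these libraries. Cell type markers also differed: the summed level of 26 round spermatid markers was 11057 to 11602 CPM in knockout and 7993 to 8788 CPM in wild type, 1.34 times as high. The sum of 17 elongating spermatid markers was 27655 to 30684 CPM in knockout and 17980 to 21936 CPM in wild type, 1.51 times as high. The sum of 15 Leydig cell markers was 1465 to 1646 CPM in knockout and 2763 to 3024 CPM in wild type. In each of these 3 lists every marker had counts, and the groups did not overlap (two-sided exact permutation p = 0.0286, the smallest that 4 against 4 allows, and 0.0514 adjusted over 9 lists). The sum of 20 Sertoli cell markers was 1730 to 2026 CPM in knockout and 2594 to 2955 CPM in wild type. That of 20 spermatogonia markers was 908 to 985 CPM in knockout and 1036 to 1238 CPM in wild type. Both were without overlap, at the same p by that test. The groups overlapped for spermatocytes (ratio 1), peritubular myoid cells (1.02), macrophages and leukocytes (1.15) and endothelial cells (0.887). In bulk tissue, more or fewer cells of a type and more or less RNA per cell cannot be told apart.

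The family was higher in knockout as a whole. Summed over all 21 members, the counts gave 60.3, 82.1, 71.1 and 59.9 CPM in the knockout libraries, against 17.3, 20.4, 17.3 and 19.4 CPM in the wild-type libraries. Every knockout library was thus above every wild-type library, and the spread was wider in knockout. The mean was 68.3 ± 10.5 CPM in knockout and 18.6 ± 1.57 CPM in wild type (SD, n = 4 each), a ratio of 3.67, or 1.88 ± 0.124 on the log2 scale (SE). The sum rests on 5413 counts in knockout and 1653 in wild type. It does not depend on which copy a read was given to, as long as the read was counted and stayed within the family. Whether reads matching several copies were counted at all is not known. The 9 symbols without a row are not in the sum. No p-value is given for the sum, since the family was chosen with earlier results of these data known.

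**Figure D2:**
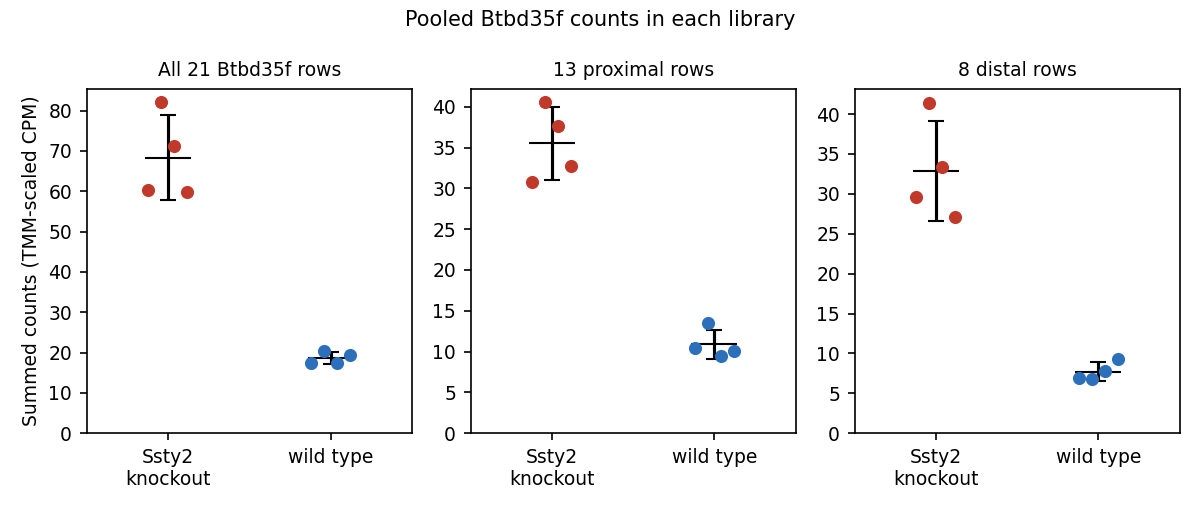
Summed Btbd35f counts (TMM-scaled CPM, linear axes from 0) in each library, for all 21 rows, the 13 proximal rows and the 8 distal rows. Points are libraries, with Ssty2 knockout left of wild type, and bars are the mean ± SD of 4 libraries. In all 3 panels the knockout libraries lie above the wild-type libraries.

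Set against the round spermatid markers of the same library, the family was also higher in knockout. Knockout libraries had 5.2, 7.14, 6.43 and 5.25 Btbd35f counts per 1000 round spermatid marker counts, against 1.97, 2.55, 1.98 and 2.25 in wild type, a ratio of means of 2.74. The groups did not overlap on this scale either. Against the counts of 11 X-linked single-copy spermatid genes, the values were 17.4, 22.1, 20.8 and 17.4 per 1000 in knockout and 8.27, 10.4, 8.45 and 9.22 in wild type, a ratio of 2.14. The family was thus higher in knockout relative to both denominators, by less than on the CPM scale, and the denominators were themselves higher in knockout. Akap4 holds most counts of the X-linked list, at mean levels of 2591 CPM in knockout and 1600 CPM in wild type. Its log2 fold change of 0.70 lies below the list median of 1.08, so this ratio is mainly that to Akap4. Ldhc is the most abundant gene of the round spermatid list, at means of 3737 CPM in knockout and 3210 CPM in wild type. The list sums averaged 11389 and 8531 CPM. The log2 fold change of Ldhc was 0.22, beside a marker median of 0.48. Whether the genes of this list are particular to round spermatids was not tested.

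Gene by gene, 15 members had enough counts to be tested, and all 15 rose in knockout (edgeR's quasi-likelihood test over 21952 genes, Benjamini-Hochberg adjusted p between 3.92e-08 and 0.00514). Over all tested genes 26.2% rose and 27.4% fell. The 15 log2 fold changes ran from 1.35 to 3.14 with a median of 1.97, beside a median of -0.01 over all tested genes. All 15 passed the test with a rise of at least 2-fold, as did 4.69% of tested genes, and in all 15 the groups did not overlap, as in 22.7% of tested genes. Of the 15, 10 reached the filter's 0.483 CPM in every library, while Btbd35f7, Btbd35f10, Btbd35f12, Btbd35f13 and Btbd35f18 reached it in every knockout library but not in every wild-type library. These 5 passed only through the group in which they were higher, so the 15 do not stand for all 21. The 10 that reached the cutoff in both groups had log2 fold changes from 1.39 (Btbd35f24) to 2.43 (Btbd35f27). With no filter 18 members could be tested, and 17 of them rose, beside 5842 of all 41909 genes tested in that fit. The exception was Btbd35f20 with its 2 counts. Adjusted values of the fit with no filter were far smaller at a similar SE, as given below for Btbd35f29, so its calls are not comparable.

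**Figure D3:**
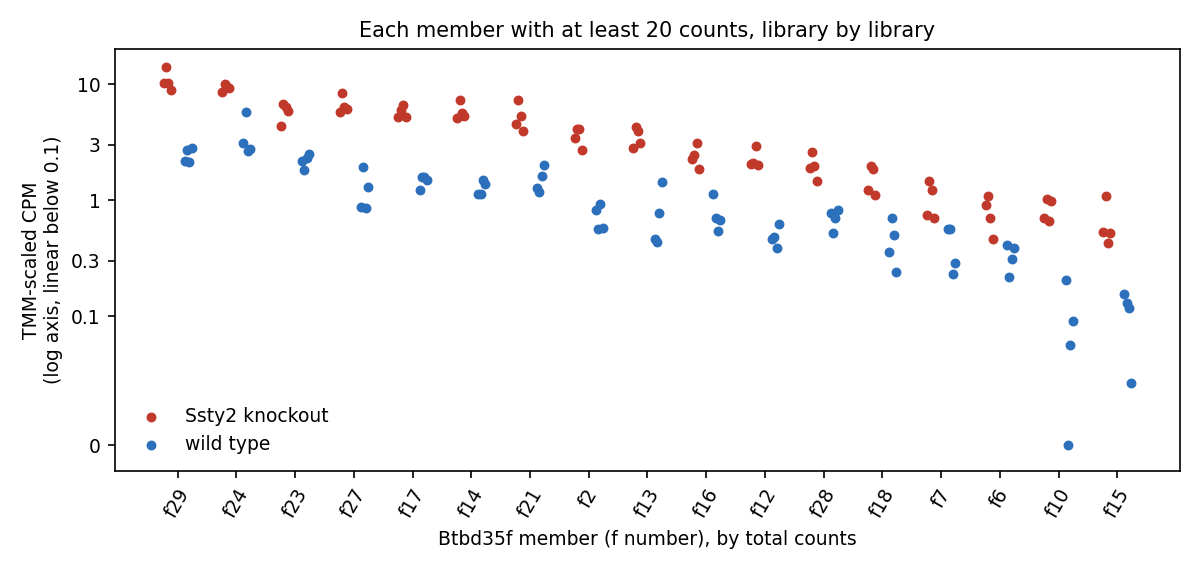
Level of each of the 17 members with at least 20 counts (TMM-scaled CPM on a log axis that is linear below 0.1), 1 point per library, with the Ssty2 knockout libraries left of the wild-type libraries. Members are ordered by total counts, and the knockout points lie above the wild-type points in each of them.

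Btbd35f29, in the distal stretch, held the most counts of the family. Its level was 10.2, 14.1, 10.3 and 8.95 CPM in knockout against 2.16, 2.71, 2.14 and 2.83 CPM in wild type, so that the groups were far apart. The fold change was 4.44, or 2.15 on the log2 scale (SE 0.163, adjusted p = 3.92e-08 by edgeR's quasi-likelihood test, as for all adjusted values that follow). Its 60-base stretch above differs from the majority of the members at 2 positions.

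Btbd35f24 and Btbd35f23, neighbours at the proximal end of the annotated order, had the smaller rises among the 8 members with the most counts. Btbd35f24 had 8.57, 9.98, 9.49 and 9.24 CPM in knockout against 3.13, 5.72, 2.64 and 2.74 CPM in wild type. Its wild-type library 2 stood above the other 3, yet below every knockout library. The log2 fold change was 1.39 (SE 0.196, adjusted p = 2.26e-05), and without that library it was 1.71. Btbd35f23 had 4.34, 6.75, 6.33 and 5.93 CPM in knockout against 2.16, 1.83, 2.33 and 2.5 CPM in wild type. Knockout library 1 was the lowest of its group and still above all wild-type libraries. Its log2 fold change was 1.41 (SE 0.171, adjusted p = 5.40e-06). These are the members with the most sequence of their own, with 88.7% of their words shared.

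Btbd35f27 and Btbd35f17 of the proximal stretch rose more. Btbd35f27 had 5.79, 8.39, 6.38 and 6.16 CPM in knockout against 0.873, 1.92, 0.855 and 1.3 CPM in wild type. The wild-type libraries spread over a more than 2-fold range without reaching the knockout libraries. The log2 fold change was 2.43 (SE 0.224, adjusted p = 3.10e-07), a fold of 5.39. Btbd35f17 had 5.25, 6.04, 6.66 and 5.23 CPM in knockout against 1.23, 1.57, 1.59 and 1.49 CPM in wild type. Both groups were tight, and the log2 fold change was 1.97 (SE 0.163, adjusted p = 1.05e-07).

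In the distal stretch, Btbd35f14, Btbd35f21 and Btbd35f2 rose by similar factors. Btbd35f14 had 5.09, 7.36, 5.67 and 5.35 CPM in knockout against 1.13, 1.14, 1.48 and 1.39 CPM in wild type, which is 2.18 on the log2 scale (SE 0.179, adjusted p = 9.84e-08). Btbd35f21 had 4.5, 7.36, 5.34 and 3.95 CPM in knockout against 1.28, 1.18, 1.63 and 2.02 CPM in wild type, which is 1.79 on the log2 scale (SE 0.22, adjusted p = 5.73e-06). In both, knockout library 2 was the highest of its group and no library crossed over. Btbd35f2 had 3.43, 4.12, 4.11 and 2.73 CPM in knockout against 0.822, 0.568, 0.933 and 0.576 CPM in wild type. Its groups lay about as far apart, at 2.30 on the log2 scale (SE 0.226, adjusted p = 6.01e-07).

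Of the remaining tested members, the largest fold changes were those of Btbd35f10 and Btbd35f12. Btbd35f10 had 13, 22, 14 and 17 counts in knockout against 4, 0, 2 and 2 in wild type, which is 0.844 ± 0.192 CPM in knockout and 0.0948 ± 0.0847 CPM in wild type (SD, n = 4). Its log2 rise of 3.14 (SE 0.501, adjusted p = 7.28e-05) is the largest of the tested members and rests on the fewest counts among them. Without wild-type library 1 it was 3.73, a change of 1.51 times in the fold. Btbd35f12 had 2.04, 2.11, 2.93 and 2.03 CPM in knockout against 0.462, 0.48, 0.389 and 0.624 CPM in wild type. Knockout library 3 stood above the rest of its group, and the log2 fold change was 2.22 (SE 0.251, adjusted p = 2.56e-06).

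The smallest fold changes of the remaining members were those of Btbd35f7 and Btbd35f28, both proximal. Btbd35f7 had 0.75, 1.45, 1.23 and 0.697 CPM in knockout against 0.565, 0.568, 0.233 and 0.288 CPM in wild type. The lowest knockout library was only a little above the highest wild-type library, and the log2 fold change was 1.35 (SE 0.364, adjusted p = 0.00514). Btbd35f28 had 1.88, 2.58, 1.98 and 1.45 CPM in knockout against 0.771, 0.524, 0.7 and 0.816 CPM in wild type, without overlap. Its log2 fold change was 1.5 (SE 0.251, adjusted p = 0.000116).

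The other 3 tested members lay within this range, with log2 fold changes of 2.19 for Btbd35f13, 1.75 for Btbd35f18 and 1.69 for Btbd35f16 (largest adjusted p of the 3, 0.000279). Btbd35f6 and Btbd35f15 had at least 20 counts but did not reach the filter. Btbd35f6 had 17, 23, 15 and 8 counts in knockout against 8, 5, 8 and 8 in wild type, and Btbd35f15 had 10, 23, 9 and 9 counts in knockout against 3, 3, 3 and 1 in wild type. Scaled for depth, neither showed overlap between the groups, with knockout above wild type. In the fit without a filter their log2 fold changes were 1.26 (adjusted p = 0.0072) and 2.45 (adjusted p = 3.69e-05) by edgeR's quasi-likelihood test. Adjusted values of that fit are not comparable with those of the main fit. For Btbd35f29 the same test gave 3.92e-08 with the filter and 2.38e-40 without it, at SEs of 0.163 and 0.157.

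Of the 7 members with a row whose promoters carry the 8-base element, 4 were tested. These 4 rose, as did all 15 tested members, beside 26.2% of all tested genes. Of the 4, Btbd35f13 and Btbd35f7 reached the filter's cutoff in every knockout library but not in every wild-type library. Btbd35f13, with TGACGTCA, had a log2 fold change of 2.19 (SE 0.289), and Btbd35f21, Btbd35f28 and Btbd35f7, with TGACATCA, had 1.79 (SE 0.22), 1.5 (SE 0.251) and 1.35 (SE 0.364). Btbd35f3 and Btbd35f4, also with TGACGTCA, had no count in any library, and Btbd35f6, with TGACATCA, did not reach the filter. The difference between the spellings was not tested.

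Most members were highest in the same library. Of the 17 members with at least 20 counts, 14 were highest in knockout library 2 and 3 in knockout library 3. The same count was not made over all tested genes, so this is not shown to be particular to the family. Copies that share reads are also not separate observations. Knockout library 2 was also the highest in the pooled sum, and without it the pooled log2 ratio was 1.78.

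Both stretches of the X took part. The 13 proximal members together had 30.8, 40.6, 37.7 and 32.8 CPM in knockout against 10.4, 13.5, 9.48 and 10.1 CPM in wild type, a ratio of 3.26 (log2 ratio 1.70 ± 0.145 SE). The 8 distal members together had 29.6, 41.4, 33.4 and 27.1 CPM in knockout against 6.88, 6.85, 7.77 and 9.31 CPM in wild type, a ratio of 4.27 (log2 ratio 2.09 ± 0.168 SE). Distal over proximal counts were 0.962, 1.02, 0.886 and 0.828 in the knockout libraries and 0.66, 0.506, 0.82 and 0.919 in the wild-type libraries. The groups overlapped in this ratio, because wild-type library 4 lay above knockout libraries 3 and 4. The tested members had a median log2 fold change of 1.69 over 9 proximal ones and 2.18 over 6 distal ones.

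**Figure D4:**
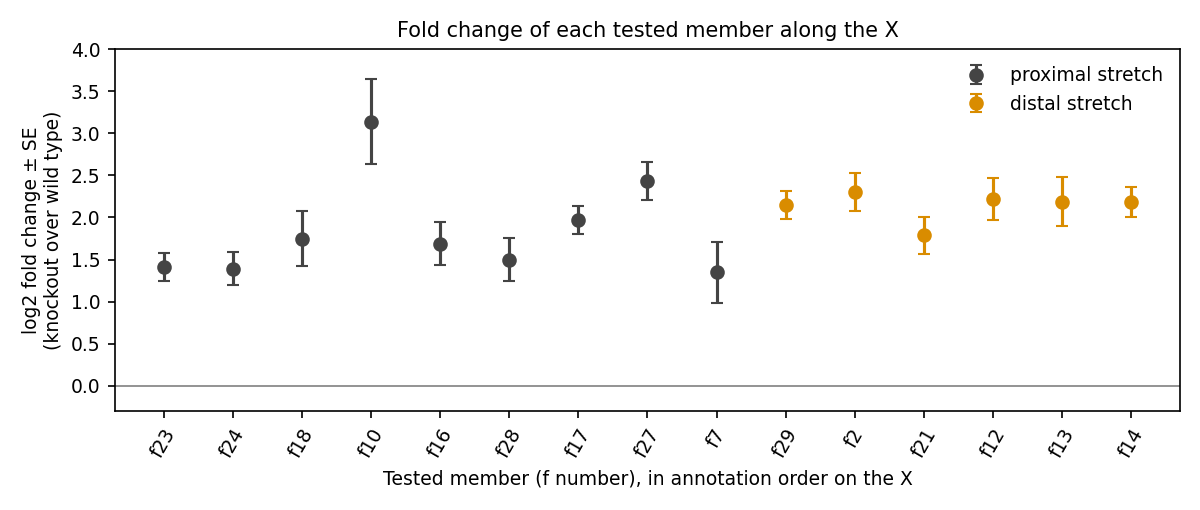
Log2 fold change of knockout over wild type (points) with its SE (bars) for the 15 tested members, in annotation order along the X, proximal stretch first. All points lie above 1, with the highest at 3.14 (Btbd35f10) and the lowest at 1.35 (Btbd35f7).

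A pair of annotated pseudogenes in the proximal stretch, Gm14367 and Gm5925, share 1284 and 1216 words with the family, and no other gene of the annotation shares any. They were named after their values were seen. Gm14367 had 495, 689, 628 and 398 counts in knockout against 97, 179, 183 and 135 in wild type, a rise of 2.07 in log2 (SE 0.129, adjusted p = 4.35e-09). Gm5925 had 132, 177, 225 and 162 counts in knockout against 28, 40, 71 and 68 in wild type, a rise of 1.93 in log2 (SE 0.208, adjusted p = 1.51e-06). Both rose as the members did, and reads shared with the members cannot be told apart. The stretches hold 67 other rows between their first and last members, of which 4 were tested. The other two were Mycs, a Myc-like gene, at -0.40 (adjusted p = 0.361) and Spin2e, a Spindlin-family gene, at 0.11 (adjusted p = 0.792), at mean levels under 1 CPM in both groups.

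The rest of the X moved in both directions. Of 821 other tested X genes, 289 (35.2%) rose and 344 (41.9%) fell, beside 26.2% and 27.4% of all tested genes, and their median log2 fold change was -0.26. Of 48 tested genes in a list of other X-linked multicopy families, 28 (58.3%) rose and 11 (22.9%) fell, beside the same shares of all genes, with a median of 0.71. Those that rose with the smallest p were the cysteine-rich perinuclear theca genes Cypt3 (1.23, adjusted p = 7.67e-10) and Cypt2 (1.29, adjusted p = 1.40e-09) and the spermatid histone H2A variant genes H2al1m (1.38) and H2al1b (1.71). Those that fell with the smallest p were Xlr3b (-1.55), the melanoma antigen family gene Magea8 (-1.34), Xlr3c (-1) and Magea5 (-1.24). These named genes that fell were at low levels, with wild-type means from 1.95 CPM (Magea5) to 2.98 CPM (Xlr3c). The wild-type means of the named genes that rose ran from 7.41 CPM (H2al1b) to 77.7 CPM (Cypt3). Multicopy families of the X thus differed in direction in these libraries, and their reads carry the same uncertainty between copies.

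Of 11 tested X-linked single-copy spermatid genes, 9 (81.8%) rose and 1 fell, beside 26.2% and 27.4% of all tested genes, with a median log2 fold change of 1.08. Actrt1, an actin-related gene of the sperm head, averaged 81.1 ± 9.2 CPM in knockout and 21 ± 1.1 CPM in wild type (SD, n = 4 each), and Akap14, an A-kinase anchoring protein gene, averaged 38.1 ± 4.01 CPM in knockout and 12.3 ± 0.992 CPM in wild type. Their log2 fold changes of 1.95 and 1.63 lie within the range of the Btbd35f members. Tcp11x2 (1.27) and Fam47c (1.41) also rose, and Tex16 fell by 0.70 on the log2 scale. The 25 tested round spermatid markers all rose with a median of 0.48 and a highest value of 0.85, and the 14 tested Leydig cell markers all fell with a median of -0.87. Whether the Btbd35f members differ from these lists in fold change was not tested.

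**Figure D5:**
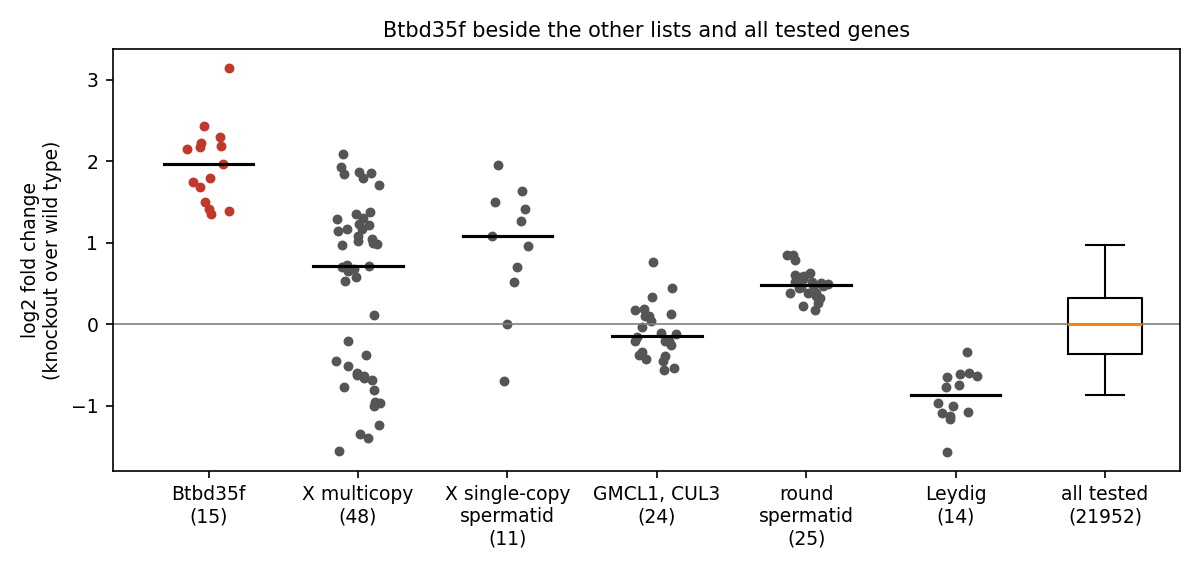
Log2 fold change of knockout over wild type for the 15 tested Btbd35f members and 5 other lists (1 point per gene, bar at the median, number of tested genes in parentheses), beside all 21952 tested genes (box from the lower to the upper quartile with the median, whiskers from the 5th to the 95th percentile). The Btbd35f median is 1.97, those of the X multicopy and X single-copy spermatid lists are 0.71 and 1.08, and that of all genes is -0.01.

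Genes around Gmcl1 and its ligase were called in both directions. Gmcl1 itself had 173 ± 13.1 CPM in knockout and 185 ± 7.74 CPM in wild type (SD, n = 4 each), with overlapping groups and a difference of -0.10 in log2 (SE 0.0596, adjusted p = 0.154). Scaled by library totals, which moved the median of all genes by -0.14, its log2 fold change was -0.25 and passed the test (adjusted p = 0.00171). Of 24 genes in the GMCL1 and CUL3 list, 5 (20.8%) rose and 10 (41.7%) fell, with a median of -0.14. The share that rose was near the 26.2% of all tested genes, while 27.4% of all genes fell. Those that rose were Lmnb2, a B-type lamin gene (0.77), Klhl10, a spermatid adaptor of CUL3 (0.44), Emd, which encodes emerin of the nuclear envelope (0.33), Cul3 (0.18) and Dcun1d1 (0.19), the last named after its value was seen. The rises of Emd, Cul3 and Dcun1d1 did not pass when libraries were scaled by their totals (adjusted p of 0.0987, 0.574 and 0.459). Among those that fell were Uba3 (-0.54) and Nae1 (-0.56), which encode the NEDD8-activating enzyme of cullins, the E2F partner gene Tfdp1 (-0.37) and the ligase RING subunit gene Rbx1 (-0.39).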

How the data were processed

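RNA of adult testis was sequenced in 4 Ssty2 knockout and 4 wild-type libraries. TRIzol extraction, DNase treatment and a TruSeq RNA kit preceded sequencing, per the labels' protocols. The deposited table holds the authors' unnormalized counts by Ensembl identifier. The submitters' processing notes list STAR, featureCounts, Trimmomatic, FastQC and DESeq2, and the build mm39. Versions, annotation release, strand setting and the treatment of multiply mapping reads are not given there.

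Symbols, order on the X and transcript sequences came from GENCODE vM21 and promoters from RefSeq, both on GRCm38, so coordinates are given only with the RefSeq promoters. A symbol was found for 52073 rows.

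Counts were tested with edgeR 4.0.16 in R 4.3.3 (quasi-likelihood test, filterByExpr with minimum count 10 and minimum total 15, TMM scaling, genotype as the only term, Benjamini-Hochberg adjustment over 21952 genes, called under 0.05). Fold changes are knockout over wild type. The SE of a gene's log2 fold change is its absolute value divided by the square root of the test's F statistic. The SE of a pooled log2 ratio comes from the spread of the log2 levels among the 4 libraries of each group. Chi-square values per degree of freedom within groups ran from 3.952 to 7.797, so no libraries were merged. Alternatives were DESeq2 1.42.0, other scalings and filters, a replicate block and each library left out. Given library by library were the 8 members with the most counts and, of the rest, the 2 largest and 2 smallest fold changes; of other lists, up to 4 called genes per direction with the smallest p. Members and lists were chosen with earlier results of these data known.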

Additional observations from a re-analysis of the deposited data

Results flagged for a closer look

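In 3 of 54 sets of 4 libraries examined, 1 library stood apart from the other 3 by more than Dixon's 95% critical value. Chance alone gives about 1 such set in 20. Btbd35f12 was at 2.93 CPM in knockout library 3, while the other knockout libraries lay between 2.03 and 2.11 CPM. Btbd35f15 was at 1.08 CPM in knockout library 2, while the others lay between 0.425 and 0.536 CPM. Btbd35f24 was at 5.72 CPM in wild-type library 2, while the others lay between 2.64 and 3.13 CPM.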

How the results depend on the processing

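All 15 tested members kept their direction and stayed past the threshold in each alternative, of up to 14, in which they could be tested (208 combinations of member and alternative), which were scaling by library totals or DESeq2 size factors, DESeq2's Wald test, no filter, a filter of at least 1 CPM in 4 libraries, the replicate block and each library left out. The number of members called higher was 15 and ran from 13 (stricter filter) to 17 (no filter), with 15 to 17 when 1 library was left out, and none was called lower. Adjusted values of the fit with no filter are not comparable with those of the main fit. The pooled log2 ratio of 1.88 was 1.73 with library totals and 1.89 with DESeq2 size factors. It was 1.46 when scaled to the round spermatid markers and 1.10 when scaled to the X single-copy spermatid list, whose counts are mostly those of Akap4. Both denominators were themselves higher in knockout. It was 1.83 without Btbd35f29, 1.79 over the members with the least shared sequence and 1.93 with Gm14367 and Gm5925 added, an alternative chosen after seeing the data. Leaving out 1 library gave 1.78 to 1.94. With library totals, 2 in place of 5 genes of the GMCL1 and CUL3 list were called higher, the median of all genes shifted by -0.14, and 31.8% in place of 48.9% of all calls were higher. Correlations of deviations between same-numbered libraries ran from 0.00201 to 0.0798, and those between differently numbered libraries from -0.0657 to 0.0406. The highest, 0.0798 and 0.0606, were both between same-numbered libraries. These values do not settle whether the numbers pair the samples, and no pairing was used in the main fit. With the replicate block 15 members were called higher and the pooled log2 ratio was 1.87. The members under 20 counts were not tested in the main fit. Btbd35f20 had 2 counts and Btbd35f3, Btbd35f4 and Btbd35f11 had none, so a difference could not have been detected in them.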
